A study of Aspergillus cristatus with 9 samples.

Results

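Oxylipin-forming oxygenases of *Aspergillus cristatus*, the golden flower fungus of Fuzhuan tea, were followed over all libraries of the series. They were picked by their annotation, as the genes of the deposited table described as a psi-producing oxygenase (*SI65_00826*) and as a linoleate 10R-lipoxygenase (*SI65_02949*), and are 2 of the 10227 genes listed. Strain JLU was used throughout and was grown on potato dextrose agar plates for 10 days. In EcRS the fungus was placed on sterilized *Panax ginseng* roots and taken from them after 1 week at 28 °C, and in EcSQ it was placed on sterilized *Panax notoginseng* roots in the same way. In EcCK it had no contact with roots. Each group had 3 libraries of total RNA. The labels call all 9 samples mycelium of 1 week of age, whereas the study describes the EcCK control, and that group alone, as spores taken from plates. In every comparison with EcCK the root, the medium and a possible difference between growing fungus and spores cannot be told apart, and in bulk RNA fewer cells of a type and less RNA per cell cannot be told apart either. The labels do not state whether a group's libraries stem from separate cultures, so that p-values measure the spread between libraries, which may be technical.

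Oxylipins are oxygenated fatty acids that fungi use as signals. Ppo enzymes, large heme proteins with a dioxygenase part and a cytochrome P450 part, add oxygen to linoleic and oleic acid. In *Aspergillus nidulans* the products of PpoA and PpoC, known as psi factors, shift the balance between asexual conidia and sexual fruiting bodies. PpoA-type enzymes oxygenate linoleic acid at one carbon and rearrange the hydroperoxide to a diol, and PpoC-type enzymes oxygenate it at another carbon. The fatty acid itself comes from membrane and storage lipids, from which lipases and phospholipases release it.

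*SI65_00826* encodes psi-producing oxygenase A and lies on the minus strand of contig 1, positions 2256248 to 2259817, with 7 exons and a listed coding length of 3234 bases. *SI65_02949* encodes linoleate 10R-lipoxygenase, the name used for PpoC-type enzymes, and lies on the minus strand of contig 2, positions 2188097 to 2191688, with 5 exons and 3381 bases. Positions are those of the deposited table, whose contigs were not matched to an assembly here. Expression was taken as FPKM, fragments per kilobase of gene scaled to the mapped total of the library, which can be compared between genes because it is per length.

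Summed over listed genes, EcRS libraries held 45891944 to 52617713 estimated counts, EcSQ libraries 53961809 to 55542113 and EcCK libraries 56398194 to 61627866. These sums exceed the valid reads that the study lists for every EcRS and EcCK library, and do not measure sequencing depth. In the study's list a smaller share of raw reads was valid in each EcRS library than in any EcCK library. Outside the listed genes lay 23.1% to 26.9% of the mapped total implied by the FPKM in EcRS, 12.1% to 14.9% in EcSQ and 12.1% to 14.1% in EcCK. EcRS libraries were close to each other, with a mean correlation of log2(FPKM + 1) with the rest of their group of 0.988 to 0.990 over 9033 genes. In EcSQ replicate 3 stood apart at 0.815, against 0.863 and 0.902 for the other EcSQ libraries, and in EcCK replicate 3 was lowest at 0.907, against 0.926 and 0.955. Results that rest on these libraries are given with and without them.

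*SI65_00826* was the more abundant of the pair in all libraries but one, and it was down-regulated in EcRS. It had 205, 185 and 114 FPKM in EcRS libraries 1 to 3, and 222, 224 and 48.1 FPKM in EcSQ libraries 1 to 3, against 1183, 1210 and 737 FPKM in EcCK libraries 1 to 3. Every library from either root lay below every EcCK library, and the lowest value of all was in EcSQ replicate 3. Of the genes tested, 54.3% had every EcRS library below every EcCK library and 17.7% every EcSQ library, and the share with both was not counted. The means were 168 ± 47.9 FPKM in EcRS, 165 ± 101 FPKM in EcSQ and 1043 ± 266 FPKM in EcCK (SD, n = 3 each). EcRS and EcSQ overlapped.

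*SI65_02949* was expressed at a lower level and spread differently. It had 46.8, 54.3 and 48.0 FPKM in EcRS libraries 1 to 3, and 55.4, 105 and 154 FPKM in EcSQ libraries 1 to 3, against 126, 171 and 224 FPKM in EcCK libraries 1 to 3. All EcRS libraries were lower than all EcSQ and all EcCK libraries, while EcSQ and EcCK overlapped. The share of all genes with EcRS wholly below EcSQ was not counted, and the median of all genes in EcRS against EcSQ was -0.84. The means were 49.7 ± 4.05 FPKM in EcRS, 105 ± 49.2 FPKM in EcSQ and 173 ± 49.0 FPKM in EcCK (SD, n = 3 each). The highest EcSQ value of *SI65_02949* was in replicate 3, the library in which *SI65_00826* was lowest, and the same held in EcCK replicate 3.

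**Figure D1:**
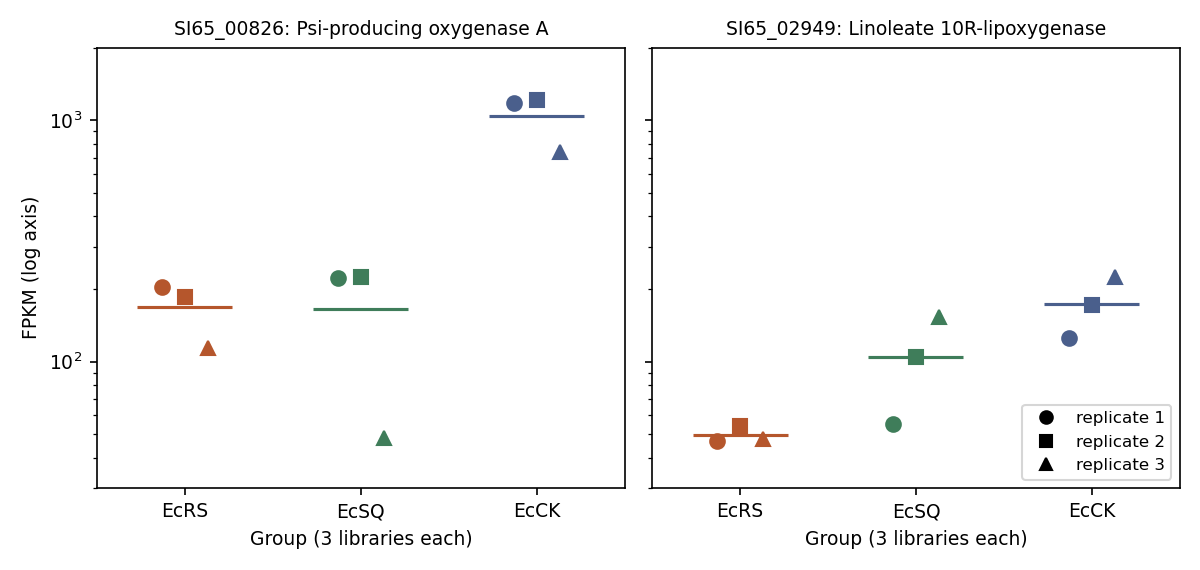
FPKM (log axis) of *SI65_00826* (left) and *SI65_02949* (right) in each library of EcRS, EcSQ and EcCK; symbols mark replicates and bars the group means. *SI65_00826* lay at 48.1 to 224 FPKM on roots and at 737 FPKM or more in EcCK, whereas *SI65_02949* was separated from EcCK in EcRS alone.

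Expression on *P. ginseng* roots was compared with that of the fungus without roots by a test across all genes, with calls made at an adjusted p up to 0.05 and a change of 2-fold or more. In EcRS against EcCK *SI65_00826* fell by 2.64 on the log2 scale (SE 0.38, 95% interval -3.51 to -1.77, adjusted p = 0.00034), which is 6.22-fold lower. *SI65_02949* fell by 1.80 (SE 0.30, interval -2.47 to -1.13, adjusted p = 0.00067), or 3.49-fold. Lower calls were common in this comparison, at 47.6% of 8925 genes tested against 12.8% called higher, and in 54.3% every EcRS library lay below every EcCK library, so that a lower call alone does not set these genes apart. The median over all genes tested was -0.96, and of these genes 21.2% had a lower log2 fold change than *SI65_00826* and 33.4% a lower one than *SI65_02949*.

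The share of genes called lower depended on how libraries were scaled. With TMM scaling (trimmed mean of M-values), which sets the bulk of genes level, the median of all genes moved by 0.85 to -0.11, and 31.4% of genes were called lower (2798, with 2352 higher, against 4251 lower and 1145 higher before). *SI65_00826* remained called, at -1.85 (adjusted p = 0.0054). *SI65_02949* was then at -0.93 (adjusted p = 0.0043), short of 2-fold and no longer called.

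In EcSQ against EcCK 1.87% of 9160 genes tested were called lower and 1.72% higher, and in 17.7% every EcSQ library lay below every EcCK library. These counts hung on single libraries, with 614 lower and 907 higher calls without EcSQ replicate 3 and 0 in either direction without EcCK replicate 1 or EcSQ replicate 2. *SI65_00826* was at -2.66 (SE 0.67, interval -4.17 to -1.15, adjusted p = 0.061) and was not called, although 4.14% of genes had a lower log2 fold change. It passed without EcSQ replicate 3 (-2.22, adjusted p = 0.024) and with TMM scaling (-2.78, adjusted p = 0.049), under which 4.9% of genes were called lower. *SI65_02949* was at -0.73 (SE 0.51, interval -1.89 to 0.43, adjusted p = 0.47), and without EcSQ replicate 3 at -1.12 (adjusted p = 0.14).

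Between the roots, in EcRS against EcSQ, *SI65_00826* differed by 0.02 (SE 0.57, interval -1.29 to 1.34, adjusted p = 0.98), an interval that leaves room for more than a 2-fold difference either way. *SI65_02949* was at -1.07 (SE 0.40, interval -1.996 to -0.15, adjusted p = 0.13) and was not called. The quasi-likelihood test of edgeR called 0% of 8784 genes lower and 0.0342% higher in this comparison, with 2670 genes at an unadjusted p under 0.05, whereas DESeq2 called 1067 lower and 458 higher. Without EcSQ replicate 3 edgeR called 4406 lower and 374 higher, and the log2 fold change of *SI65_00826* was -0.41 (adjusted p = 0.22) and that of *SI65_02949* -0.69 (adjusted p = 0.048), short of 2-fold. The median over all genes was -0.84, and -0.21 with TMM scaling, under which *SI65_00826* was at 0.83 and *SI65_02949* at -0.81. The EcRS and EcSQ comparisons share the EcCK libraries.

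**Figure D2:**
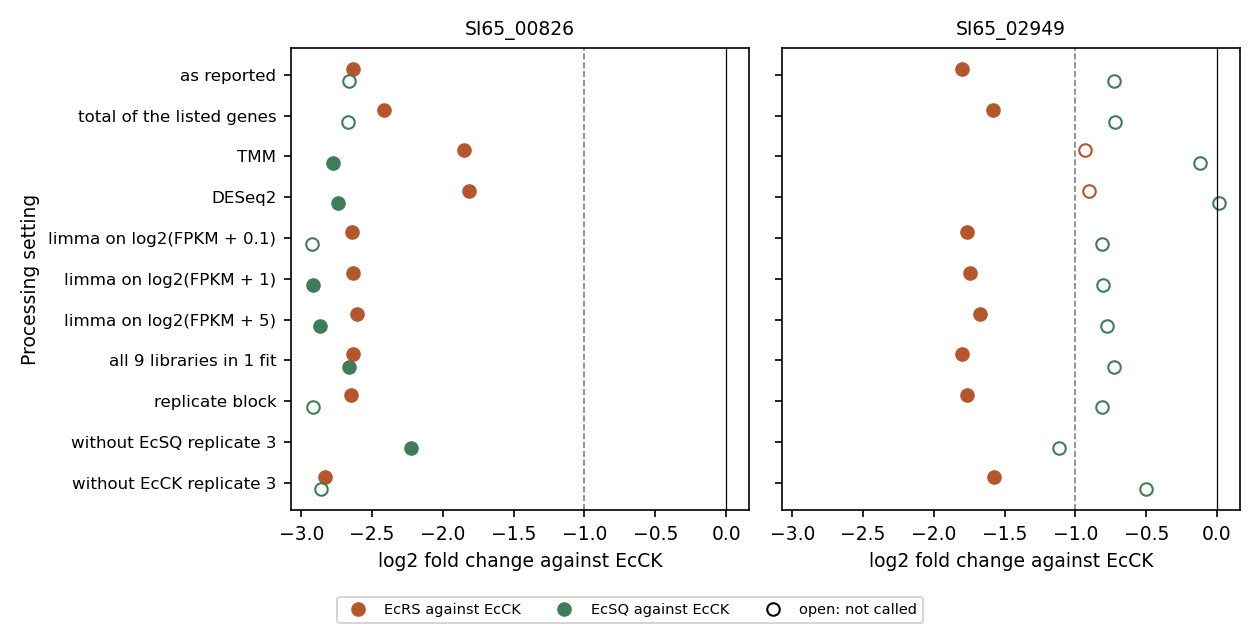
Log2 fold change against EcCK (x axis) of *SI65_00826* (left) and *SI65_02949* (right) under a choice of the processing settings (y axis), EcRS above EcSQ in each row, filled where called. The dashed line marks a 2-fold fall. *SI65_00826* stayed at -1.81 or below throughout, and *SI65_02949* in EcRS crossed the 2-fold line with TMM and DESeq2. It also did so with TMM and the replicate block, which is not drawn, at -0.93.

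Exact permutation tests on log2 FPKM were made over the groups, since 3 libraries against 3 cannot give an exact two-sided p under 0.1. Over all 1680 arrangements of the libraries into 3 groups the exact p was 0.036 for *SI65_00826* and 0.018 for *SI65_02949*, both at 0.054 after Benjamini-Hochberg adjustment over 3 tests. That of *SI65_02949* was 0.0607 without EcCK replicate 2 and 0.0643 without EcCK replicate 3. After TMM rescaling the exact p of *SI65_02949* was 0.507, and that of *SI65_00826* 0.00714.

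Rank within a library and the ratio of the genes to each other do not depend on scaling between libraries. *SI65_00826* ranked 687, 728 and 1121 by FPKM among all listed genes in EcRS, and 644, 621 and 1795 in EcSQ, against 92, 82 and 152 in EcCK. It was thus among the top 1.49% of genes in every EcCK library and among the top 6.07% at best on roots. *SI65_02949* ranked 1981, 1767 and 2038 in EcRS and 2546, 1333 and 834 in EcSQ, against 896, 745 and 610 in EcCK. Its EcSQ ranks overlapped with those of EcCK through replicate 3.

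The ratio of *SI65_00826* to *SI65_02949* was 4.37, 3.40 and 2.37 in EcRS libraries 1 to 3, and 4.02, 2.15 and 0.313 in EcSQ libraries 1 to 3, against 9.42, 7.07 and 3.30 in EcCK libraries 1 to 3. EcSQ replicate 3 was the one library with more *SI65_02949*, and both root groups overlapped with EcCK. The mean log2 ratio was 1.71 ± 0.45 in EcRS, 0.48 ± 1.92 in EcSQ and 2.59 ± 0.78 in EcCK (SD, n = 3 each). A difference over the 3 groups was not detected (exact permutation p = 0.12). The pairwise differences were -0.88 in EcRS against EcCK (two-sided exact p = 0.3), -2.12 in EcSQ against EcCK (exact p = 0.2) and 1.24 in EcRS against EcSQ (exact p = 0.4). In libraries of the same number the log2 ratio was lower in EcRS than in EcCK in 3 of 3 pairs, by -1.11, -1.05 and -0.48 (exact sign-flip p = 0.25, the smallest that 3 pairs allow). Without EcSQ replicate 1 the exact p over the groups was 0.0143, and it was 0.236 without EcSQ replicate 3.

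**Figure D3:**
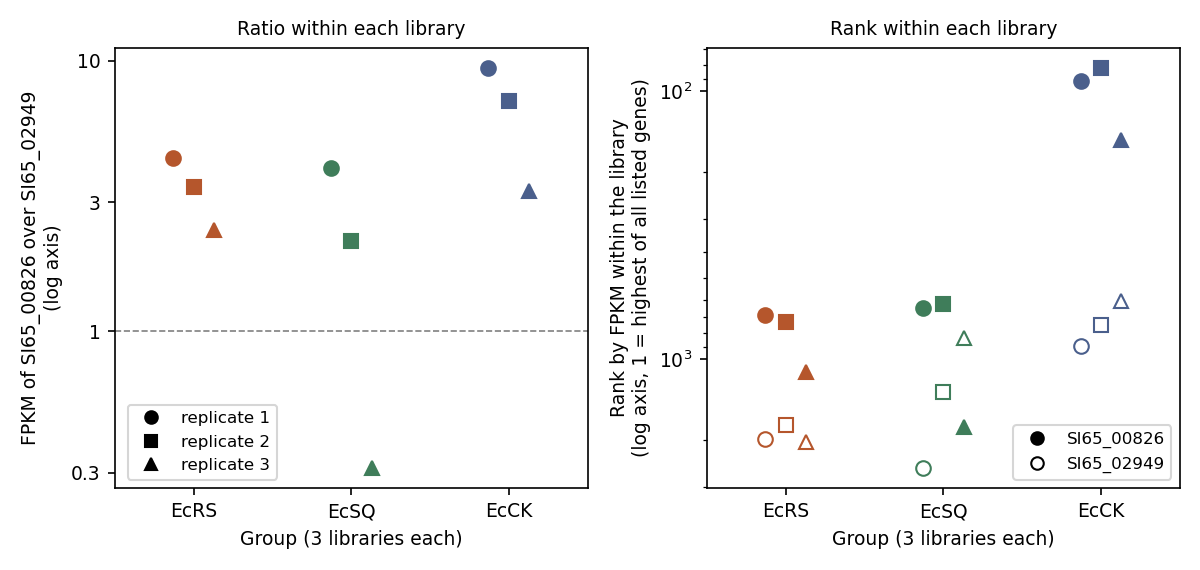
Left, FPKM of *SI65_00826* over *SI65_02949* in each library (log axis, dashed line at equal levels). Right, rank of each gene by FPKM within the library (log axis, 1 is the highest, filled for *SI65_00826* and open for *SI65_02949*). The ratio was below 1 in EcSQ replicate 3 alone, and *SI65_00826* ranked 82 to 152 in EcCK against 621 to 1795 on roots.

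Both genes belong to the linoleic acid metabolism pathway of KEGG, to which the table assigns 6 genes. Another oxygenase, *SI65_05022*, carries the same KEGG ortholog number as *SI65_02949* and was barely expressed. It had 0.287, 0.265 and 0.226 FPKM in EcRS and 2.29, 0.395 and 0.348 FPKM in EcSQ, against 1.82, 1.29 and 1.91 FPKM in EcCK. All EcRS libraries lay below all EcCK libraries, as in 54.3% of the genes tested. The gene itself fell short of the mean of 1 FPKM needed for the test in EcRS. Without that filter it was at -2.68 (SE 0.36, adjusted p = 0.000244), from 46 to 64 estimated counts per EcRS library and 286 to 414 per EcCK library. Of the summed FPKM of the 3 oxygenases, *SI65_00826* made up 70.2% to 81.3% in EcRS, 23.8% to 79.4% in EcSQ and 76.6% to 90.3% in EcCK. *SI65_05022* never made up more than 0.819%.

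The other genes of the pathway encode lipases that can free fatty acids. *SI65_00888*, annotated with triglyceride lipase activity, had 6.89, 5.33 and 8.16 FPKM in EcRS and 22.4, 31.7 and 6.38 FPKM in EcSQ, against 62.7, 70.4 and 77.4 FPKM in EcCK. It fell by 3.37 in EcRS (SE 0.27, adjusted p = 2.2e-05) and was at -1.80 in EcSQ (SE 0.61, adjusted p = 0.13). *SI65_08115*, a calcium-dependent phospholipase A2 by its annotation, had 6.65, 10.4 and 7.52 FPKM in EcRS and 12.5, 9.79 and 0.707 FPKM in EcSQ, against 67.1, 77.4 and 25.9 FPKM in EcCK. It fell by 2.79 in EcRS (SE 0.43, adjusted p = 0.00045) and was at -2.89 in EcSQ (SE 0.94, adjusted p = 0.12). In both genes every root library lay below every EcCK library. Such an order held in EcRS for 54.3% of the genes tested and in EcSQ for 17.7%.

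*SI65_01616*, which encodes a patatin-like phospholipase, had the opposite order of roots. It had 68.0, 88.8 and 63.6 FPKM in EcRS and 45.01, 32.2 and 10.4 FPKM in EcSQ, against 132, 153 and 99.2 FPKM in EcCK. EcSQ lay below EcRS without overlap, and EcRS below EcCK, an order whose share over all genes was not counted. The log2 fold change was -0.80 in EcRS (SE 0.27, adjusted p = 0.027), short of 2-fold, and -2.13 in EcSQ (SE 0.59, adjusted p = 0.080). In EcRS against EcSQ it was 1.33 (SE 0.52, adjusted p = 0.14). With TMM scaling the EcRS value was -0.0043, beside a median of -0.11 over all genes.

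Of the 6 pathway genes 5 were tested in EcRS against EcCK, and 4 were called lower and 0 higher, where 47.6% of all genes were called lower and 12.8% higher, with a median of -2.64 beside -0.96 over all genes tested. The 4 include both oxygenases, and the median is the value of *SI65_00826* itself. Of the lipase genes, *SI65_00888* and *SI65_08115* were called lower and *SI65_01616* was not. With TMM scaling 3 of the 5 were called lower, *SI65_00826* among them, where 31.4% of all genes were. The median was then -1.85, again that of *SI65_00826*, beside -0.11. In EcSQ against EcCK 6 were tested and 0 were called by edgeR, where 1.87% of all genes were called lower and 1.72% higher. The median was nevertheless -1.97 beside -0.01 over all genes. With TMM scaling 4 of the 6 were called lower there, *SI65_00826* and the 3 lipase genes, where 4.9% of all genes were.

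**Figure D4:**
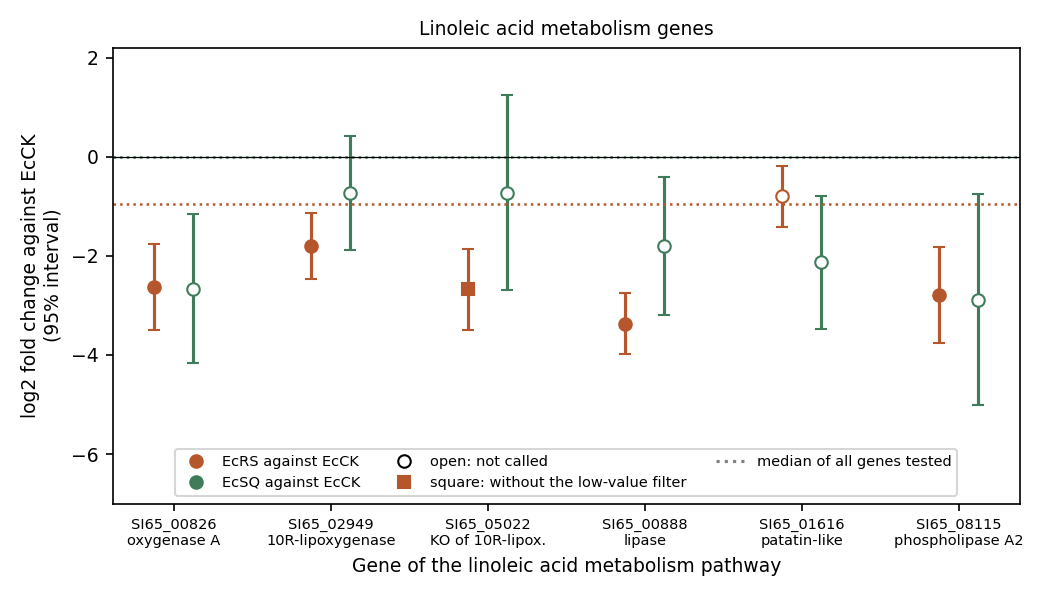
Log2 fold change against EcCK with 95% intervals for the 6 genes of linoleic acid metabolism, EcRS left of EcSQ for each gene, filled where called. Dotted lines mark the median of all genes tested, -0.96 in EcRS and -0.01 in EcSQ. The square is *SI65_05022* in EcRS, tested without the filter on low values, at -2.68.

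Of 3 genes found by the word desaturase, 1 was called higher in EcRS and 0 lower, where 12.8% of all genes were called higher. Both acyl-CoA desaturase genes among them were called higher with TMM scaling, as were 2352 of all 8925 genes tested. The other, *SI65_03516*, is described as a putative sterol desaturase. *SI65_07767*, annotated as the delta-12 desaturase that turns oleic into linoleic acid and named here for that role after its values were seen, had 304, 243 and 190 FPKM in EcRS and 104, 128 and 281 FPKM in EcSQ, against 164, 166 and 124 FPKM in EcCK. All EcRS libraries were above all EcCK libraries, at a log2 fold change of 0.70 (SE 0.28, adjusted p = 0.0501) that was not called, and at 1.497 and called with TMM scaling. The share of all genes with EcRS wholly above EcCK was not counted. *SI65_04298*, an acyl-CoA desaturase, which makes the oleic acid precursor, had 180, 250 and 271 FPKM in EcRS and 190, 169 and 58.0 FPKM in EcSQ, against 52.2, 32.2 and 47.0 FPKM in EcCK. It rose by 2.41 in EcRS (SE 0.30, adjusted p = 0.00014). A second acyl-CoA desaturase, *SI65_10039*, had 155 to 245 FPKM in EcRS and 92.5 to 161 FPKM in EcSQ, against 96.0 to 130 FPKM in EcCK, and was not called.

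Over the pathway of unsaturated fatty acid synthesis, 4 of 28 genes tested were called higher in EcRS and 11 lower, with a median of -0.40, where 12.8% of all genes were called higher and 47.6% lower with a median of -0.96. With TMM scaling 9 were higher and 5 lower, where 2352 of all 8925 genes tested were higher and 2798 lower. Fatty acid biosynthesis had 4 of 25 higher and 9 lower (median -0.41), and 7 in each direction with TMM. Its most abundant genes were *SI65_01097*, an acyltransferase of fatty acid synthesis, which rose by 2.04 in EcRS (SE 0.52, adjusted p = 0.0069), or by 2.93 without EcCK replicate 3, and *SI65_02848*, a reductase gene at 163 to 231 FPKM in EcRS, 28.5 to 333 FPKM in EcSQ and 65.6 to 400 FPKM in EcCK. On the same background, fatty acid degradation had 10 of 66 higher and 34 lower (median -1.19), and 16 higher and 21 lower with TMM. One of its most abundant members, *SI65_08143*, a monooxygenase gene, had 659, 713 and 372 FPKM in EcRS and 263, 142 and 33.8 FPKM in EcSQ, against 5095, 5084 and 1631 FPKM in EcCK. It fell by 2.76 in EcRS (SE 0.52, adjusted p = 0.0015). In EcSQ it fell by 4.75 (SE 0.89, adjusted p = 0.029), a call lost without EcCK replicate 1, EcCK replicate 2 or EcSQ replicate 2, while the value lay between -5.48 (without EcSQ replicate 1) and -4.28.

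Of 7 phospholipases and lipases found by name, 1 was called higher and 3 lower in EcRS (median -0.84), near the 12.8% and 47.6% of all genes, and 1 was higher and 2 lower with TMM. *SI65_00919*, lysophospholipase 1, had 754, 771 and 708 FPKM in EcRS and 418, 672 and 1058 FPKM in EcSQ, against 315, 415 and 346 FPKM in EcCK, and rose by 1.05 in EcRS (SE 0.28, adjusted p = 0.0083), or by 0.97 and no longer 2-fold without EcCK replicate 1. *SI65_09737*, lysophospholipase 3, had 116, 122 and 116 FPKM in EcRS and 185, 103 and 8.79 FPKM in EcSQ, against 567, 488 and 228 FPKM in EcCK, and fell by 1.86 (SE 0.37, adjusted p = 0.0019), a call lost with TMM scaling at -1.11. The alpha-linolenic acid pathway, which shares the 3 lipase genes above, had 1 of 12 higher and 7 lower in EcRS (median -1.31), and arachidonic acid metabolism had 1 of 9 higher and 5 lower (median -1.36), again near the shares of all genes. With TMM scaling 2 were higher and 4 lower in each (medians -0.50 and -0.46). Of all 8925 genes tested 2352 were then higher and 2798 lower, with a median of -0.11. *SI65_00840*, a peroxisomal thiolase, was the one that rose in the alpha-linolenic acid list, by 1.56 (SE 0.30, adjusted p = 0.0015).

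Among 24 other dioxygenases tested, 1 was called higher and 13 lower in EcRS (median -1.20), and 2 higher and 11 lower with TMM. The share of all genes called lower was 47.6%, and 31.4% with TMM. The most abundant were *SI65_03436*, a dioxygenase of methionine salvage, with 154 to 327 FPKM in EcRS, 131 to 406 FPKM in EcSQ and 192 to 293 FPKM in EcCK, and *SI65_00618*, a 4-hydroxyphenylpyruvate dioxygenase, which fell by 1.37 in EcRS (SE 0.44, adjusted p = 0.022), a call lost without EcCK replicate 3 (-0.71), EcRS replicate 2 (-1.28) or EcRS replicate 3 (-1.30), and with TMM scaling (-0.44). Peroxidases and catalases, which act on hydroperoxides, had 2 of 7 called higher and 2 lower (median -0.06), and 3 higher and 2 lower with TMM. Of all 8925 genes tested 12.8% were called higher and 47.6% lower before TMM, and 2352 higher and 2798 lower with it. The catalase gene *SI65_08046* rose by 1.23 in EcRS (SE 0.44, adjusted p = 0.035), a call lost without EcCK replicate 1 or 2 or any one EcRS library (0.89 to 1.34) and at 1.85 without EcCK replicate 3. The other higher call was *SI65_02459* at 2.05. The lower calls were *SI65_00107* at -3.07 and *SI65_01337* at -5.48, the latter at no more than 0.148 FPKM in EcRS. From the arachidonic acid list, the peroxiredoxin gene *SI65_02935* fell by 2.64 (SE 0.31, adjusted p = 0.00010).

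The genes with the pattern most like each oxygenase were found by the Pearson correlation of log2(FPKM + 1) over the 9 libraries among 9032 other genes. These points share libraries and fall into groups, and the correlation only describes likeness. For *SI65_00826* they were *SI65_06782*, a histone H3 methyltransferase gene (r = 0.989), *SI65_00322*, annotated in glutathione metabolism (0.988), *SI65_09806*, in folate biosynthesis (0.988), *SI65_04085*, with actin binding (0.983), and *SI65_02741*, a beta-xylosidase gene xlnD (0.982). *SI65_09806* had 17.3, 9.78 and 8.91 FPKM in EcRS and 22.7, 17.0 and 2.21 FPKM in EcSQ, against 121, 124 and 106 FPKM in EcCK. Every root library lay below every EcCK library as in *SI65_00826*, an order held in EcRS by 54.3% of the genes tested and in EcSQ by 17.7%.

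For *SI65_02949* the nearest genes were *SI65_09677*, annotated as a diacylglycerol kinase (r = 0.987), *SI65_09552*, autophagy-related protein 13 (0.977), *SI65_05722* (0.965), *SI65_08304* (0.955) and the beta-glucosidase gene *SI65_02326*, btgE (0.953). *SI65_09677* had 56.9, 65.2 and 61.3 FPKM in EcRS and 64.6, 88.3 and 130 FPKM in EcSQ, against 123, 125 and 161 FPKM in EcCK. The lists had no gene in common, and the oxygenases had r = 0.46 with each other, which placed *SI65_02949* at rank 4565 for *SI65_00826*. All 10 of these genes were called lower in EcRS against EcCK, a direction that the choice by likeness favours, where 47.6% of all genes were. With TMM scaling 2 were, *SI65_09806* and *SI65_02741*, where 31.4% of all genes were. The call of *SI65_00322* was also lost without EcCK replicate 2 (-0.98) or EcRS replicate 3 (-0.997).

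Both oxygenases were compared with the 2 genes on either side. Downstream of *SI65_00826* and on the same strand, after 923 bases, lies *SI65_00825*, a ubiquitin-protein transferase gene. It had 6.93, 9.33 and 9.97 FPKM in EcRS and 37.7, 26.4 and 12.2 FPKM in EcSQ, against 59.2, 54.2 and 51.6 FPKM in EcCK, and fell by 2.65 in EcRS (SE 0.28, adjusted p = 5.9e-05). On the other side, divergently placed at 1598 bases, *SI65_00827* encodes an enoyl reductase of very-long-chain fatty acid elongation. It had 84.3, 94.5 and 101 FPKM in EcRS and 121, 126 and 47.6 FPKM in EcSQ, against 268, 304 and 224 FPKM in EcCK. It fell by 1.51 in EcRS (SE 0.24, adjusted p = 0.00058), but was at -0.72 with TMM scaling and then not called. In EcSQ it was at -1.43 (SE 0.51, adjusted p = 0.14), and in all root libraries it was lower than in all EcCK libraries. That order held in EcRS for 54.3% of the genes tested and in EcSQ for 17.7%.

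The outer neighbours of *SI65_00826* were not called lower in EcRS. *SI65_00824*, a ribose-phosphate pyrophosphokinase gene, rose by 1.69 in EcRS (SE 0.29, adjusted p = 0.000825), and *SI65_00828*, of N-glycan processing, was at -0.42 (SE 0.33, adjusted p = 0.28), and at 0.45 with TMM scaling. Around *SI65_02949* all 4 neighbours were called lower in EcRS, as were 47.6% of all genes tested. The largest fall there was that of *SI65_02950*, which has no described function and starts 3348 bases from it on the other strand. It had 1.71, 1.69 and 2.08 FPKM in EcRS and 9.0, 11.4 and 3.86 FPKM in EcSQ, against 79.4, 39.4 and 34.2 FPKM in EcCK, and fell by 4.80 in EcRS (SE 0.40, adjusted p = 2.4e-05). *SI65_02951*, next to it, fell by 3.49 (SE 0.59, adjusted p = 0.00080). On the other side *SI65_02948*, of the dynactin complex, fell by 2.49 (SE 0.53, adjusted p = 0.0030), or by 3.25 without EcRS replicate 2, and *SI65_02947* by 2.72 (SE 0.43, adjusted p = 0.00055). In EcSQ 0 of the 8 neighbours were called by edgeR before TMM scaling, where 1.87% of all genes were called lower and 1.72% higher. *SI65_00824* was at 2.49 there (SE 0.65, adjusted p = 0.069). With TMM scaling it was called higher in EcSQ, at 3.16 (adjusted p = 0.047), as were 431 of all 9160 genes tested.

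**Figure D5:**
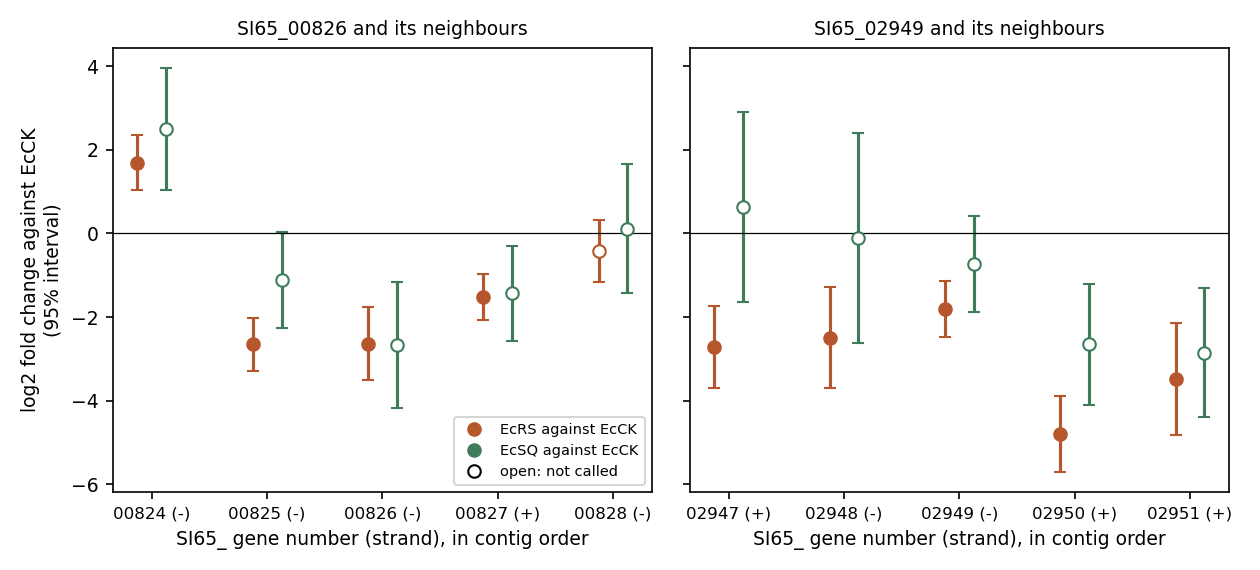
Log2 fold change against EcCK with 95% intervals for *SI65_00826* (left) and *SI65_02949* (right), each in the middle of its 4 neighbours in contig order with their strand, EcRS left of EcSQ, filled where called. In EcRS 2 neighbours of *SI65_00826* and 4 of *SI65_02949* were called lower, and *SI65_00824* was called higher at 1.69.

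Regulators of sporulation, on which psi factors act in *A. nidulans*, had 1 of 8 called higher and 2 lower in EcRS, where 12.8% and 47.6% of all genes were. *SI65_02875* encodes NsdD, needed for sexual development in *A. nidulans*. It had 5.10, 7.197 and 10.8 FPKM in EcRS and 40.1, 36.3 and 7.72 FPKM in EcSQ, against 44.4, 64.7 and 120 FPKM in EcCK, and fell by 3.31 in EcRS (SE 0.45, adjusted p = 0.00024). *SI65_02778* encodes BrlA, which switches on conidiation. It had 23.4, 26.3 and 35.2 FPKM in EcRS and 46.0, 72.0 and 61.8 FPKM in EcSQ, against 8.98, 15.0 and 34.6 FPKM in EcCK. It was at 0.53 (adjusted p = 0.32) and not called, but was called without EcCK replicate 3 (1.24) and with TMM scaling (1.47). The other regulator called lower was *SI65_01598*, described as regulatory protein AbaA, which fell by 1.51 in EcRS. It had 0.927, 1.65 and 2.92 FPKM in EcRS and 9.15, 9.86 and 3.53 FPKM in EcSQ, against 3.98, 4.70 and 7.03 FPKM in EcCK. The regulator called higher was *SI65_06388*, which encodes FluG, needed for the onset of conidiation in *A. nidulans*. It had 118, 98.4 and 67.3 FPKM in EcRS and 52.1, 77.7 and 56.4 FPKM in EcSQ, against 25.2, 28.4 and 23.6 FPKM in EcCK, and rose by 1.88 in EcRS (SE 0.28, adjusted p = 0.00039). Of the 4 genes on the mating and fruiting list, which also holds NsdD, 1 was called higher in EcRS and 2 lower. With TMM scaling 1 was higher and 1 lower. The higher call was *SI65_05562*, the mating type gene MAT1-1, which rose by 3.06 in EcRS (SE 0.44, adjusted p = 0.00033), or by 3.71 without EcCK replicate 3. The lower calls were NsdD and *SI65_02553*, the carboxypeptidase gene kex1. The latter had 44.0 to 69.6 FPKM in EcRS and 18.2 to 83.5 FPKM in EcSQ, against 105 to 207 FPKM in EcCK. NsdD, BrlA, FluG and MAT1-1 were named for their role after their values were seen, and AbaA as the other lower call. Where 2352 of 8925 genes were called higher and 2798 lower with TMM scaling, 3 of the 8 regulators were higher and 1 lower. The most abundant, *SI65_03573* (stuA) and *SI65_08076* (flbA), had 116 to 151 and 142 to 168 FPKM in EcRS, 380 to 731 and 90.7 to 257 FPKM in EcSQ, and 50.0 to 425 and 53.3 to 127 FPKM in EcCK.

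Markers of conidia, hyphae and fruiting were listed because the samples may differ in their makeup. The 3 conidium markers summed to 3009 to 4339 FPKM in EcRS and 3890 to 6094 FPKM in EcSQ, against 454 to 2603 FPKM in EcCK, and most of this was the rodlet protein of the spore coat, *SI65_07477*. That gene was at 1.49 in EcRS against EcCK (adjusted p = 0.051), while the other 2, *SI65_03945* and *SI65_09934*, had the opposite sign at -0.92 and -1.32 and did not exceed 2.03 FPKM in EcRS, 15.2 FPKM in EcSQ and 6.27 FPKM in EcCK. None of the 3 was called by edgeR in EcRS, and with TMM scaling 1 was called higher. In EcCK and EcSQ the sum was highest in replicate 3, at 2603 and 6094 FPKM, the library of each group with the least *SI65_00826*. In EcRS it was highest in replicate 1, at 4339 FPKM, the EcRS library with the most *SI65_00826*. The 9 hyphal growth markers, septins and chitin synthases, summed to 675 to 1027 FPKM in EcRS and 752 to 1215 FPKM in EcSQ, against 517 to 804 FPKM in EcCK. In EcRS 1 was called higher and 2 lower, and 3 higher and 0 lower with TMM. Of all 8925 genes tested 12.8% were called higher and 47.6% lower before TMM, and 2352 higher and 2798 lower with it. The 4 mating and fruiting markers summed to 122 to 196 FPKM in EcRS, 230 to 300 FPKM in EcSQ and 196 to 425 FPKM in EcCK. The part of these differences in the levels of the oxygenases was not tested.

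Genes annotated to G-protein-coupled receptor signalling, the kind of receptor through which oxylipins are thought to be sensed, had 1 of 9 called higher and 4 lower in EcRS, where 12.8% and 47.6% of all genes were. With TMM scaling 4 were higher and 1 lower (median 0.43). Over all 8925 genes tested the balance moved in the same direction, from 1145 higher and 4251 lower to 2352 higher and 2798 lower. *SI65_05890*, annotated with the ending of such signalling, had 472, 583 and 580 FPKM in EcRS and 362, 624 and 298 FPKM in EcSQ, against 53.1, 68.3 and 32.2 FPKM in EcCK. It rose by 3.41 in EcRS (SE 0.36, adjusted p = 6.05e-05) and by 3.06 in EcSQ (SE 0.54, adjusted p = 0.025), the EcSQ call being lost without any one EcCK library or EcSQ replicate 2, with values between 2.69 and 3.33.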

How the data were processed

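RNA sequencing of 9 libraries (EcRS, EcSQ and EcCK, 3 each) was used, with groups from the sample titles. The authors deposited 1 table that gives, for every library, FPKM and estimated counts of 10227 genes. Tools listed in the submitters' notes, with no role stated, are StringTie 1.3.0, HISAT2 2.0 and Bowtie 0.12.2. How reads shared by related genes or antisense strands were counted is not given in the sources used here. All listed lengths are multiples of 3 and are coding lengths. The counts derive from coverage, so that counting intervals would be approximate.

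Tests used edgeR 4.0.16 in R 4.3.3 (quasi-likelihood) on the estimated counts as deposited, rounded to whole numbers. The library size was the per-million factor behind the FPKM, recovered from genes with at least 200 counts. Genes whose FPKM averaged under 1 over the 6 libraries of a comparison were dropped. Both oxygenases passed throughout. Calls needed an adjusted p (Benjamini-Hochberg over all genes tested) up to 0.05 and a log2 fold change of 1 or more in size. SE is the log2 fold change divided by the root of the F statistic. Exact permutation tests served single values. Alternatives were TMM, DESeq2 1.42.0, limma 3.58.1 on log2(FPKM + 0.1, 1 or 5), other filters and library totals, counts divided by 4, a replicate block, all 9 libraries in 1 fit and leaving out each library. Same-numbered EcRS and EcCK libraries deviated together (r of deviations 0.12, 0.20 and 0.29), so that their numbers were taken to pair them, from the data and not from the labels. The pairing is uncertain, since EcRS replicate 2 and EcCK replicate 1 also reached 0.20. EcSQ numbers did not pair.

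The oxygenases and the gene lists, matched by annotation terms, were chosen with earlier results of these data known. The term formin was narrowed after it also matched "-forming", and a list of old yellow enzymes matched 0 genes. Named genes were the oxygenases, all linoleic acid metabolism genes, the 5 most correlated with each, 2 neighbours on either side and the 2 most abundant of each other list, of which those bearing on the oxygenases are described. Some annotation entries were not used here.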

Additional observations from a re-analysis of the deposited data

How the results depend on the processing

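In EcRS against EcCK genes called lower were 2798 with TMM, 2814 with DESeq2, 2768 with TMM and the replicate block and 2738 with limma on log2(FPKM + 5), and genes called higher were 2352, 2424 and 2392 with the first 3 of these. *SI65_00826* stayed called in EcRS under all 12 settings and without any one library. *SI65_02949* stayed called without any one library and under 9 of 12 settings, and was at -0.93 with TMM, -0.90 with DESeq2 and -0.93 with TMM and the replicate block. The cause was not tested.

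In EcSQ against EcCK genes called lower were 449 with TMM, 1036 with DESeq2, 259 and 351 with limma on log2(FPKM + 1) and log2(FPKM + 5) and 592 with all 9 libraries in 1 fit. Genes called higher were 431 with TMM, 1274 with DESeq2, 315 with limma on log2(FPKM + 5), 705 with all 9 libraries in 1 fit and 84 with TMM and the replicate block. Leaving out 1 library gave 0 to 614 lower and 0 to 907 higher. *SI65_00826* passed under 5 of 12 settings, at -2.78 with TMM, -2.74 with DESeq2, -2.91 and -2.86 with limma on log2(FPKM + 1) and log2(FPKM + 5) and -2.66 with all 9 libraries in 1 fit. When 1 library was left out it passed in 1 of 6 fits and lay between -2.95 and -2.22. *SI65_02949* was at 0.0134 with DESeq2.

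In EcRS against EcSQ genes called lower were 1 with TMM, 1067 with DESeq2 and 1105 with all 9 libraries in 1 fit. Genes called higher were 14 with TMM, 458 with DESeq2, 0 and 5 with limma on log2(FPKM + 0.1) and log2(FPKM + 5), 118 with all 9 libraries in 1 fit and 6 with TMM and the replicate block. Leaving out 1 library gave 0 to 4406 lower and 0 to 374 higher, and -0.41 to 0.31 for *SI65_00826*.

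The replicate block alone changed no call of *SI65_00826* or *SI65_02949* in any comparison, while together with TMM it left *SI65_00826* at -2.75 in EcSQ against EcCK and not called (adjusted p = 0.083). With it, EcRS against EcSQ had 0 genes called higher, and EcSQ against EcCK 25 called lower and 9 higher, while same-numbered libraries had correlations of their deviations of -0.17 to 0.21 in the first and -0.11 to -0.04 in the second.

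The exact p over the groups for *SI65_02949* was 0.507 after TMM rescaling. When 1 library was left out it was 0.00357 to 0.0643, that of *SI65_00826* 0.0107 to 0.0429 and that of the ratio 0.0143 to 0.361. Without both EcSQ replicate 3 and EcCK replicate 3, a choice made after seeing the data, it was 0.0286 for *SI65_00826*, 0.0381 for *SI65_02949* and 0.0857 for the ratio.

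Signs also turned in other genes. In EcRS against EcCK *SI65_01616* was at 0.0279 with DESeq2 and 0.0404 with TMM and the replicate block, and *SI65_00828* at 0.45 with TMM, 0.48 with DESeq2 and 0.45 with TMM and the replicate block. In EcSQ against EcCK *SI65_09677* was at 0.0044 with TMM and 0.13 with DESeq2, *SI65_08304* at 0.0812 and *SI65_02326* at 0.0754 with DESeq2, and *SI65_02947* at -0.0384 and -0.22 with limma on log2(FPKM + 1) and log2(FPKM + 0.1), -0.0651 with the replicate block and -0.0230 with TMM and the replicate block. When 1 library was left out, EcSQ against EcCK ranged over -0.35 to 0.45 for *SI65_00828*, -0.47 to 1.18 for *SI65_02947*, -1.26 to 0.46 for *SI65_02948* and -0.38 to 0.44 for *SI65_07767*, and EcRS against EcSQ over -0.45 to 0.64 for *SI65_08115*.

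Low estimated counts were no limit for either oxygenase, at 9865 or more in every library, and the spread between libraries set the precision. *SI65_05022* rested on 46 to 456 counts. With 3 libraries a group, intervals were wide in EcSQ.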
